A study of Mus musculus with 30 samples.

Results

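The RNA levels of 9 myelin genes, Mbp, Mog, Mag, Cnp, Mal, Mobp, Cldn11, Ugt8a and Sox10, were followed over 30 arrays of mouse forebrain. Their members were all probe sets whose annotated symbol is exactly one of these names, 24 of the 22626 probe sets left without the Affymetrix controls: 8 for Mbp, 3 each for Cnp, Mobp and Sox10, 2 each for Mal and Ugt8a, and 1 each for Mog, Mag and Cldn11. The rule reads the annotated symbol and no measured value. A probe set is a group of short probes against one transcript, and its value is given on the log2 scale. Of the 24 probe sets, 23 averaged 4 or more over the 30 arrays and were tested, and the other one, Sox10 1425369_a_at, had a mean of 2.30.

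The 30 arrays came from male C57BL mice in 3 groups of 10, with 1 array for each mouse and no pooling. C57BL is an inbred laboratory strain. The clozapine mice drank 12 mg/kg/day for 12 weeks, the haloperidol mice drank haloperidol at 1.6 mg/kg/day for 12 weeks, and the controls received no drug. All mice were kept in single cages, no altered allele is named for any group, and every label gives an age of 4 weeks. Clozapine is an atypical antipsychotic with many receptor targets, and haloperidol is a typical antipsychotic that mainly blocks dopamine D2 receptors. The RNA came from whole forebrain of one hemisphere, labelled right in most fields and left in one, after the cerebellum had been separated. The comparisons ask whether long oral treatment with either drug goes with a different level of myelin gene RNA.

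Myelin is the membrane sheath that oligodendrocytes wrap around axons in the brain. Mbp and Mobp are small basic proteins of compact myelin, and Cnp is an enzyme of the cytoplasmic channels between its layers. Mag sits on the inner face of the sheath next to the axon, Mog on its outer surface, Mal is a membrane proteolipid that sorts myelin components, and Cldn11 forms the tight junctions between the wraps. Ugt8a makes galactocerebroside, a main myelin lipid, and Sox10 is a transcription factor of the oligodendrocyte lineage that binds many myelin genes together with Myrf. In RNA from whole tissue, fewer oligodendrocytes and less RNA per oligodendrocyte cannot be told apart.

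The promoters of 5 genes, Mobp, Cnp, Mag, Mal and Cldn11, are printed here because the levels of these genes step together between clusters of arrays. Each is the stretch of 250 bases before the gene's annotated start, from RefSeq on GRCm38.p6, read 5′ to 3′ on the gene's strand. Capitals mark the motif ACAAAG or its reverse complement CTTTGT, a core bound by Sox factors, and the motif CTGGCAC or its reverse complement GTGCCAG, a core bound by Myrf. The windows are Mobp at chr9:120149492-120149741 (plus strand), Cnp at chr11:100574689-100574938 (plus strand), Mag at chr7:30914864-30915113 (minus strand), Mal at chr2:127656696-127656945 (minus strand) and Cldn11 at chr3:31149670-31149919 (plus strand).
Mobp: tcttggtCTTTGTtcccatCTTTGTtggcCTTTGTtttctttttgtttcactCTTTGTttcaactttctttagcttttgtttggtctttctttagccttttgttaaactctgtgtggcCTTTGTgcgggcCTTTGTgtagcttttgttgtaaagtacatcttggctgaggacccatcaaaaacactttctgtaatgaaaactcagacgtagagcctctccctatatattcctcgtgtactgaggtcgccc
Cnp: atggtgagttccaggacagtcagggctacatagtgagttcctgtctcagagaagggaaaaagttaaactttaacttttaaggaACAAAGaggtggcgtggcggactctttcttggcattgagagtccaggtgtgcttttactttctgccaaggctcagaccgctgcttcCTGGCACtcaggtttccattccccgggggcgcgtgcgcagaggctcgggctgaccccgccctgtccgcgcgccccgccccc
Mag: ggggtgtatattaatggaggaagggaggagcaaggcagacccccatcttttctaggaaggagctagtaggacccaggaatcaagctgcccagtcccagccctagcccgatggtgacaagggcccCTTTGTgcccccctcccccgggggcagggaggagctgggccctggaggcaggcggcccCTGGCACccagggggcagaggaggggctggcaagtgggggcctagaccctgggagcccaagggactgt
Mal: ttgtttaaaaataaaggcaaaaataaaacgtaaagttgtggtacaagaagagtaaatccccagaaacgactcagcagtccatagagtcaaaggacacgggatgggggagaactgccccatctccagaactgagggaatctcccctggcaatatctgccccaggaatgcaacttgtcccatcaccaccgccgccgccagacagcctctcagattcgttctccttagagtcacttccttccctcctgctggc
Cldn11: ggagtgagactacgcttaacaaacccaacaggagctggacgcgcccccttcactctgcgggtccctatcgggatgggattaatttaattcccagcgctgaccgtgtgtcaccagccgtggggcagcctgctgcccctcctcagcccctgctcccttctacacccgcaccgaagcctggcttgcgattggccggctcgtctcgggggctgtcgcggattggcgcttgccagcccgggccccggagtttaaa

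The Mobp window held ACAAAG 6 times on either strand, with first bases 243, 231, 221, 198, 132 and 120 bases before the start. Of 32851 mouse promoter windows of the same length, the members included, 16.5% held this motif at least once. Only 1 held it 6 times or more, and that is the Mobp window itself, from which the count of 6 was taken. The Cnp window held ACAAAG 167 bases and CTGGCAC 81 bases before the start, and the printed Mag window held them 126 and 68 bases before it. Both motifs stood together in 0.691% of all windows, and CTGGCAC alone or with others in 4.19%. A further Sox core, AACAAT or ATTGTT, is present in 9.42% of windows and was found in none of the member windows searched. The Mal and Cldn11 windows, and those of Ugt8a and Mog, held none of these letters. Windows of 7 members were searched, and of the 3 windows of Mag the first is printed. The second Mag window overlaps it and holds the same matches 67 and 9 bases before its own start. The third Mag window holds none of the motifs. The motifs do not overlap each other in these windows, and a match is a description of the letters only.

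Every array gave a median near that of the others, from 4.63 to 4.88, but arrays of the same treatment group fell into different clusters. Clustering on 12855 tested probe sets that left out the members and the other oligodendrocyte lists gave cluster A with 11 arrays (3 control, 3 clozapine and 5 haloperidol), cluster B with 8 (4, 1 and 3) and cluster C with 7 (2, 5 and 0). Control 1, clozapine 7, haloperidol 2 and haloperidol 7 fell outside them. The treatment groups are spread unevenly over the clusters, so cluster and treatment cannot be fully told apart. As a sign of RNA quality, the mean difference between the 3′ and 5′ control probe sets of Gapdh and Actb was 0.64 ± 0.11 (SD, n = 11) in A, 0.60 ± 0.15 (SD, n = 8) in B and 1.06 ± 0.22 (SD, n = 7) in C, against 4.09 in control 1 and 2.45 in haloperidol 7. The labelled tissue was checked with marker lists: 9 of 10 neuron markers and 10 of 10 astrocyte markers passed the level filter, and the matched blood genes did not. Of 8 cerebellar markers 5 passed, and Pcp2, Gabra6 and Cbln3 did not.

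No myelin gene changed with either drug by the test used. In limma, with Benjamini-Hochberg adjustment over 12944 probe sets and a threshold of 0.05, 0 of the 23 member probe sets were called with clozapine against control, 0 with haloperidol against control and 0 with clozapine against haloperidol, and the smallest adjusted p over all probe sets was 0.9997, 0.9999 and 0.965. Over all probe sets tested the share called was also 0% in each comparison. At an unadjusted p under 0.05 the members gave 0, 1 and 0 of 23, against a background of 4.35%, 2.3% and 3.14% of all probe sets. Clozapine and haloperidol share the control arrays, so the comparisons against control are not independent of each other.

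With the probe set of highest mean for each gene, 2 of 9 genes were higher and 7 lower with clozapine than in controls, with a median difference of -0.09 against 0.02 over all probe sets tested, of which 55.3% were higher. With haloperidol 2 of 9 were higher and 7 lower, with a median of -0.09 against -0.03 and 43.5% higher over all probe sets. Clozapine against haloperidol gave 7 higher and 2 lower, with a median of 0.07 against 0.05 and 60.7% higher over all probe sets. With the array cluster as a block, to which the 4 arrays outside the clusters add nothing, the median was -0.08 for clozapine, 0.02 for haloperidol (5 of 9 genes higher) and -0.03 for clozapine against haloperidol, so the last 2 changed sign. All of these medians are smaller than the SD of the per-array member median between mice, 0.23. That SD is a spread of single mice, not the error of a difference between group means. In the plot of the members by group, each panel shows that the 3 groups overlap.

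**Figure D1:**
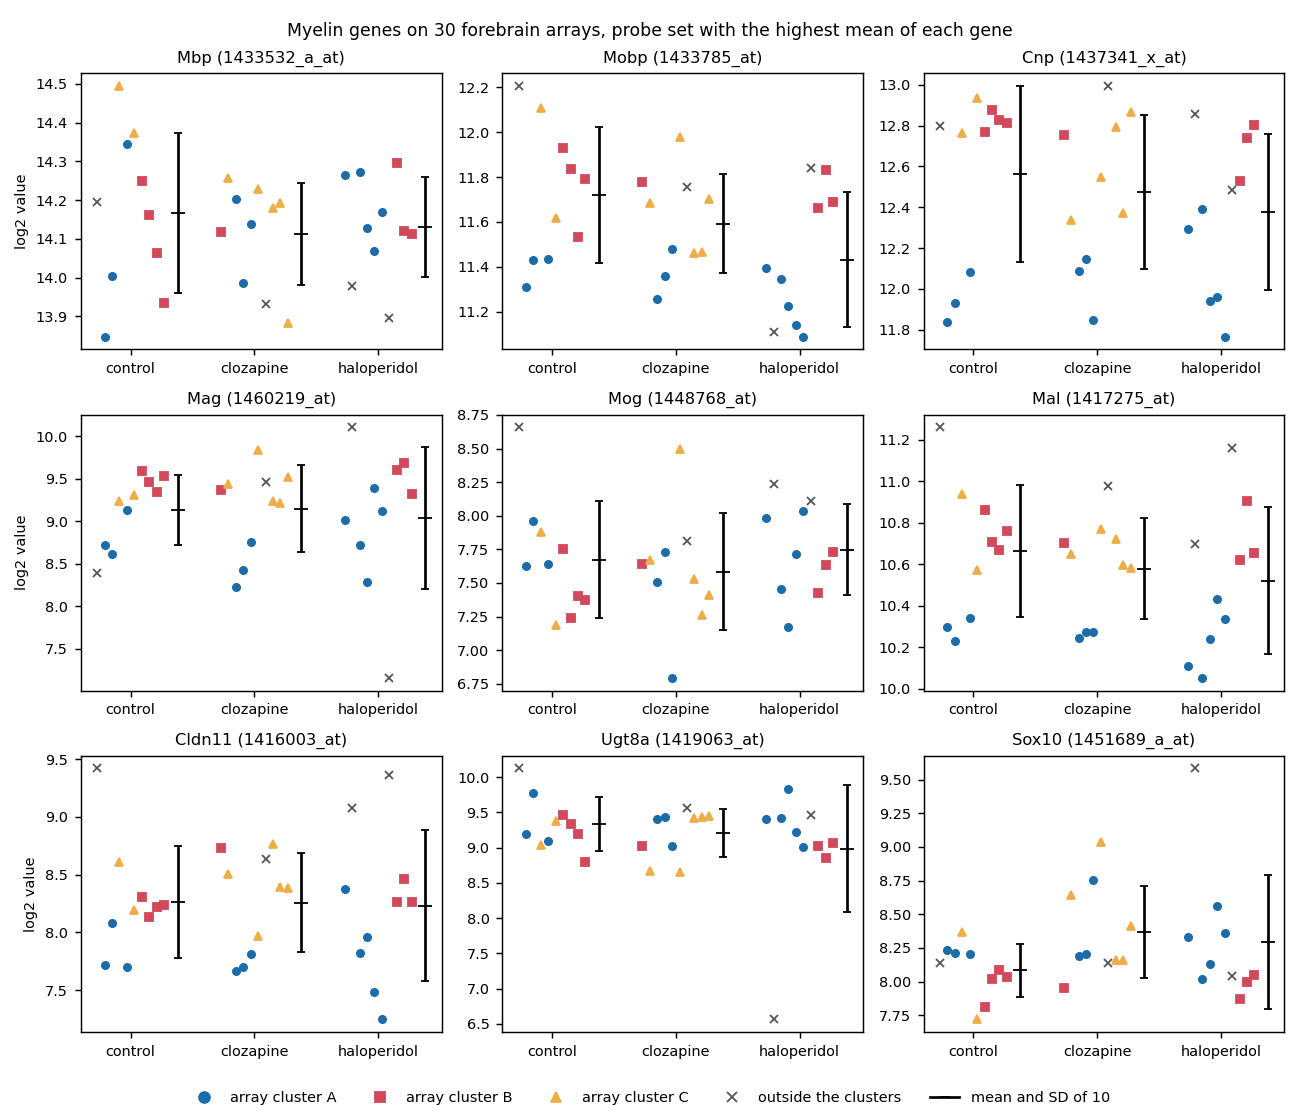
Log2 value (y axis, a separate scale in each panel) of the probe set with the highest mean of each of the 9 myelin genes on 30 arrays, by treatment group (x axis), with colour and shape for the array cluster and a bar for the mean and SD of 10 mice. The 3 groups overlap in every panel, while blue cluster A arrays lie low for Mobp, Cnp and Mal in all groups, and haloperidol 2 stands at 6.56 for Ugt8a and 9.58 for Sox10.

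Mbp, of compact myelin, varied little on its brightest probe set and a great deal on dimmer ones described further on. The brightest probe set, 1433532_a_at, ran from 13.85 through a median of 14.18 to 14.50 in controls, from 13.88 through 14.16 to 14.26 with clozapine and from 13.90 through 14.12 to 14.30 with haloperidol. The 3 ranges lie almost on top of each other. The difference was -0.06 (SE 0.09) with clozapine and -0.04 (SE 0.09) with haloperidol, with 95% intervals of 0.850- to 1.09-fold and 0.862- to 1.10-fold. The within-group SD of this probe set, 0.16, lay at percentile 1.30 of all probe sets tested, and its values lie near the top of the scale, which reaches 15.47.

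Mobp was the one member with an unadjusted p under 0.05, in the lower direction, where 1.47% of all probe sets tested had such a p. Probe set 1433785_at ran from 11.31 through a median of 11.70 to 12.21 in controls, from 11.26 through 11.58 to 11.98 with clozapine and from 11.09 through 11.37 to 11.84 with haloperidol. The haloperidol arrays reached lower than the controls, but their upper part lay inside the control range. Haloperidol minus control was -0.29 (SE 0.13, 95% interval -0.55 to -0.02, 1.22-fold lower, unadjusted p 0.0351, limma adjusted p 0.9999), and clozapine minus control was -0.13 (SE 0.13). Of the 10 haloperidol arrays, 5 belong to cluster A, where Mobp is low in every group, against 3 of 10 controls. Within cluster A the haloperidol minus control difference was -0.15 (5 against 3 arrays) and within B -0.04 (3 against 4), and with the cluster as a block it was -0.13 (SE 0.09, unadjusted p 0.163), a fit to which the 4 arrays outside the clusters add nothing. The part of the cluster in this difference was not tested further. Without control 1 the difference was -0.23, with an unadjusted p of 0.0790. Without haloperidol 2 it was -0.25, with one of 0.0639, and without haloperidol 7 it was -0.33, with one of 0.0159. With quantile normalization it was -0.28 (unadjusted p 0.0294), and with RNA quality as a covariate -0.24 (unadjusted p 0.0528). On the other Mobp probe sets haloperidol minus control was -0.18 (SE 0.21) for 1421010_at and -0.29 (SE 0.45) for 1450088_a_at.

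Cnp 1437341_x_at ran from 11.84 through a median of 12.78 to 12.94 in controls, from 11.85 through 12.46 to 12.996 with clozapine and from 11.76 through 12.44 to 12.86 with haloperidol. In controls its values split into a low set of cluster A arrays, up to 12.09, and a high set from 12.76. With either drug the cluster A arrays were also the lowest, but the values ran on without such a gap. Clozapine minus control was -0.09 (SE 0.18) and haloperidol minus control was -0.19 (SE 0.18).

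The adhesion proteins at the faces of the sheath overlapped between groups. Mag 1460219_at ran from 8.39 through a median of 9.27 to 9.59 in controls, from 8.23 through 9.30 to 9.84 with clozapine and from 7.15 through 9.22 to 10.11 with haloperidol. Its lowest and highest values of all were both haloperidol arrays, numbers 7 and 2. The differences from control were 0.02 (SE 0.27) for clozapine and -0.09 (SE 0.27) for haloperidol, with the widest intervals of the 9 genes (-0.53 to 0.56 and -0.64 to 0.45). Mog 1448768_at ran from 7.19 through 7.63 to 8.66 in controls, from 6.79 through 7.59 to 8.49 with clozapine and from 7.17 through 7.72 to 8.24 with haloperidol. The highest control value is control 1, and without it clozapine minus control turned from -0.09 (SE 0.18) to 0.02.

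The tetraspan membrane proteins likewise overlapped between groups. Mal 1417275_at ran from 10.23 through a median of 10.69 to 11.26 in controls, from 10.24 through 10.62 to 10.97 with clozapine and from 10.05 through 10.53 to 11.16 with haloperidol. Its differences from control were -0.09 (SE 0.14) and -0.14 (SE 0.14). Cldn11 1416003_at ran from 7.70 through 8.21 to 9.42 in controls, from 7.67 through 8.39 to 8.77 with clozapine and from 7.25 through 8.26 to 9.36 with haloperidol, with control 1 and haloperidol 7 at the top of their groups. Its group means, 8.26, 8.26 and 8.23, differed by no more than 0.03, with an SE of 0.23.

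Ugt8a, the lipid enzyme, gave the largest haloperidol difference among the brightest probe sets of the 9 genes, and 1 array carries most of it. Probe set 1419063_at ran from 8.80 through a median of 9.27 to 10.12 in controls, from 8.65 through 9.41 to 9.57 with clozapine and from 6.56 through 9.14 to 9.83 with haloperidol. The value of 6.56 is haloperidol 2, and the next lowest haloperidol array stood at 8.85. Haloperidol minus control was -0.36 (SE 0.26, unadjusted p 0.180) and -0.09 (SE 0.16) without that array. Clozapine minus control was -0.13 (SE 0.26). The dimmer Ugt8a probe set 1419064_a_at gave -0.70 (SE 0.45, unadjusted p 0.131) for clozapine minus control and -0.44 (SE 0.45) for haloperidol minus control. With the array cluster as a block its clozapine difference was -0.58 (SE 0.21, unadjusted p 0.0119, limma adjusted p 0.661).

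Among the brightest probe sets of the genes, Sox10, the lineage factor, gave the largest clozapine difference, in the opposite direction to most others. Probe set 1451689_a_at ran from 7.72 through a median of 8.11 to 8.37 in controls, from 7.95 through 8.20 to 9.04 with clozapine and from 7.87 through 8.09 to 9.58 with haloperidol. The medians lie close, and the higher clozapine mean goes with the arrays above the control maximum, of which clozapine 6 at 9.04 is the highest. Clozapine minus control was 0.28 (SE 0.16, 95% interval -0.05 to 0.62, unadjusted p 0.0956, limma adjusted p 0.9997). Another Sox10 probe set, 1424985_a_at, gave 0.22 (SE 0.14). Within clusters the clozapine minus control difference of 1451689_a_at was 0.17 in A (3 against 3 arrays), -0.03 in B (1 against 4) and 0.44 in C (5 against 2). With haloperidol 2 left out of the fit it was 0.28 (limma unadjusted p 0.0269, adjusted p 0.864). With control 1, haloperidol 2 and haloperidol 7 left out it was 0.29 (limma unadjusted p 0.0305, adjusted p 0.385). In haloperidol the maximum of 9.58 is again haloperidol 2, the array with the lowest Ugt8a.

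When the 30 arrays were weighted by their quality in limma, 5 member probe sets were called with clozapine against control: Ugt8a 1419064_a_at (-1.49), Mal 1432558_a_at (-0.73), Mobp 1421010_at (-0.50), Mobp 1450088_a_at (-1.15) and Sox10 1451689_a_at (0.35, adjusted p 0.0354). The same fit called 1731 of all 12944 probe sets, and it gave controls 7 to 10, which are the 4 control arrays of cluster B, weights of 3.44 to 4.86. With the cluster as a block beside the weights, an alternative chosen after the data were seen that leaves out the 4 arrays outside the clusters, 0 member probe sets were called.

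**Figure D2:**
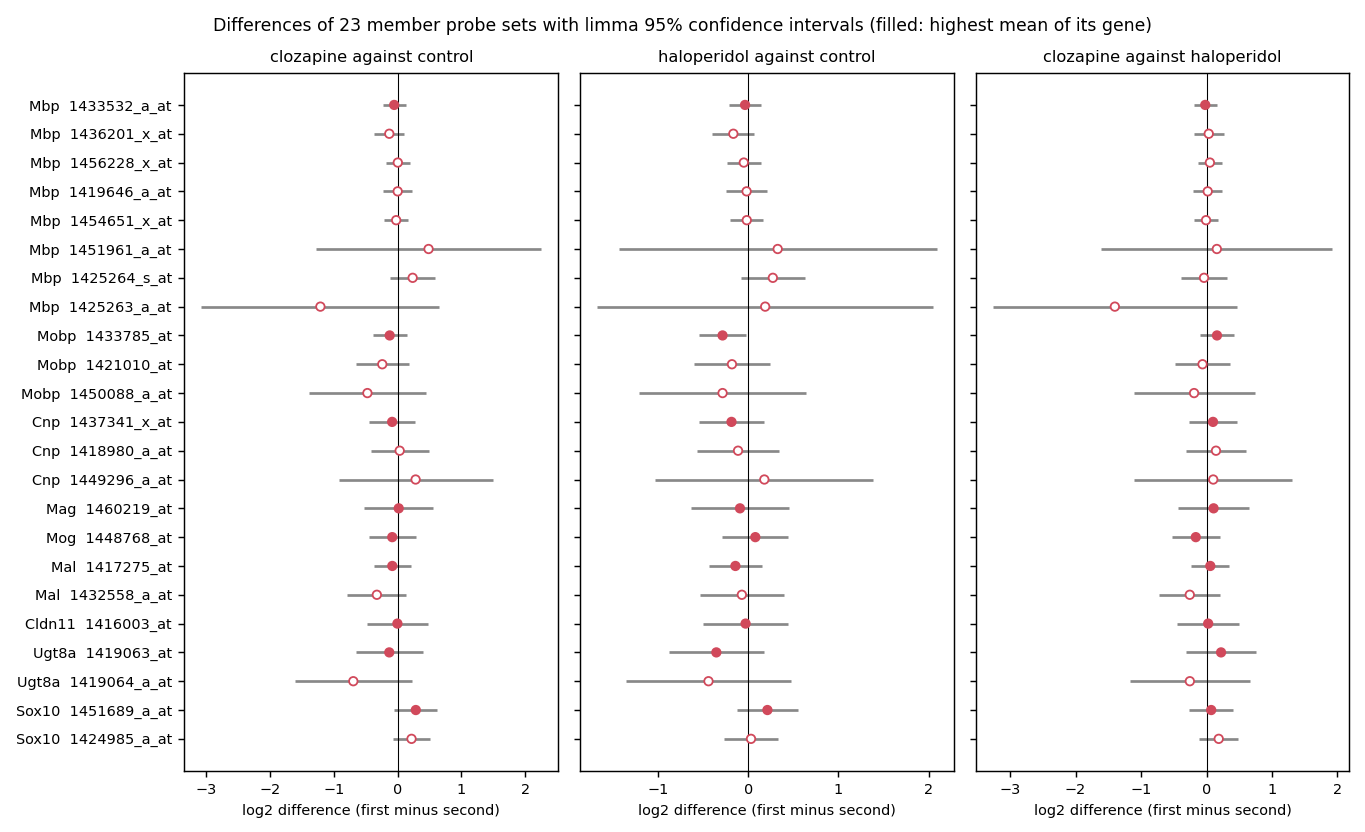
Log2 difference (x axis) of each of the 23 tested member probe sets (rows) in the 3 comparisons, with the limma 95% confidence interval as a bar and a filled point for the probe set with the highest mean of its gene. All intervals cross 0 except that of Mobp 1433785_at with haloperidol against control (-0.55 to -0.02), and those of Mbp 1425263_a_at and 1451961_a_at are many times wider than those of the brighter Mbp probe sets.

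Other genes of the myelin programme, from a list of 55 of which 44 were matched on the array and 39 passed the filter, gave 0 calls in each comparison. At an unadjusted p under 0.05, clozapine against control gave 1 higher and 1 lower (background 2.12% and 2.22%), haloperidol against control gave none, and clozapine against haloperidol gave 2 lower (background 0.927%), with list medians of 0.01, -0.06 and 0.08. Jam3, a junctional adhesion molecule, was at 5.63 in controls and 5.14 with clozapine (-0.49, SE 0.19, unadjusted p 0.018), and Efnb3, a myelin ephrin, was at 8.19 and 8.49 (0.30, SE 0.15). Myrf, the partner of Sox10 whose motif was searched above, was at 7.10 in controls, 7.42 with clozapine and 7.26 with haloperidol (clozapine minus control 0.31, SE 0.18). Erbb3, a neuregulin receptor, was at 4.51 with clozapine and 5.11 with haloperidol (-0.60, SE 0.23), and Plekhb1 at 10.41 and 10.71 (-0.30, SE 0.14). None of these values passed after adjustment (adjusted p 0.965 or more).

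Oligodendrocyte precursor genes gave 0 calls among 7 tested of 16. Ptprz1, a receptor phosphatase of precursors, was at 9.36 in controls, 9.45 with clozapine and 9.09 with haloperidol, and its clozapine minus haloperidol difference of 0.36 (SE 0.16, unadjusted p 0.0313) was the one value under 0.05 in that list (background 2.21% higher). Genes of the paranode and the axon contact zone, where the sheath meets the axon, gave 0 calls among 9 tested of 12 and none at an unadjusted p under 0.05. The widest among them was Kcna1, a potassium channel of the zone beside the paranode, at 9.23 in controls, 8.40 with clozapine and 9.29 with haloperidol (clozapine minus control -0.83, SE 0.55).

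Between mice, the larger pattern of the myelin genes followed the array clusters. A group of 5 genes stood lower in cluster A than in B and in C: B minus A was 0.74 for Cnp (1.67-fold), 0.72 for Mag, 0.55 for Cldn11, 0.48 for Mal and 0.44 for Mobp, and C minus A was 0.63, 0.63, 0.62, 0.43 and 0.40 in the same order. The other 4 did not share this on their probe sets of highest mean: B minus A was 0.002 for Mbp, -0.08 for Mog, -0.25 for Ugt8a and -0.31 for Sox10. Other bright Mbp probe sets did step: 1436201_x_at was 13.18 in A, 13.41 in B and 13.57 in C, and 1419646_a_at was 12.79, 13.001 and 13.005. The clusters were drawn from the arrays themselves, so these are descriptions without a test, although no member was used to draw them. For Cnp, Mal and Mobp every B array lay above every A array, 3 of 9 genes. Over all probe sets tested, 13.3% had all of B above all of A and 21.6% had no overlap in either direction. The median of B minus A was 0.44 over the 9 genes and 0.08 over all probe sets. Without regard to sign, the median over all probe sets was 0.36. A size above 0.5 was seen in 36.5% of all probe sets and, among the members, in Cnp, Mag and Cldn11.

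For Cnp the 11 arrays of A ran from 11.76 to 12.39 and the 8 arrays of B from 12.53 to 12.88. For Mal they ran from 10.05 to 10.43 and from 10.62 to 10.90, and for Mobp from 11.09 to 11.48 and from 11.53 to 11.93. These genes therefore separate A from B arrays of the same treatment group. For each of the 3, B minus A is larger than its differences between treatments. Sox10 went the other way, from 8.02 to 8.75 in A and from 7.81 to 8.09 in B. Clusters A and B differed little in the 3′ minus 5′ measure given above, and C was higher. Other marker lists moved with the clusters too: the mean of 9 neuron markers was 10.64 in A, 11.34 in B and 10.84 in C, that of 10 astrocyte markers 9.75, 9.53 and 9.44, and that of the 39 other oligodendrocyte genes 7.80, 7.94 and 7.94. Over single arrays the neuron mean ran from 10.18 to 11.36 in controls, from 10.34 to 11.37 with clozapine and from 10.18 to 11.39 with haloperidol. Their part in the pattern was not tested.

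Of the other lists, the means in A, B and C were 7.54, 7.55 and 7.56 for 9 microglia markers, 6.87, 6.89 and 7.14 for 6 endothelial markers, 6.67, 7.08 and 6.999 for 4 choroid plexus and ependyma markers, 8.92, 9.13 and 9.33 for 5 cerebellar markers, and 7.29, 6.67 and 7.33 for 2 peripheral myelin genes. The cluster A arrays all carry replicate numbers from 1 to 6, and 7 of the 8 arrays of cluster B carry numbers from 7 to 10. Cnp was 12.74 ± 0.18 (SD, n = 12) on numbers 7 to 10 and 12.29 ± 0.40 (SD, n = 18) on numbers 1 to 6.

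**Figure D3:**
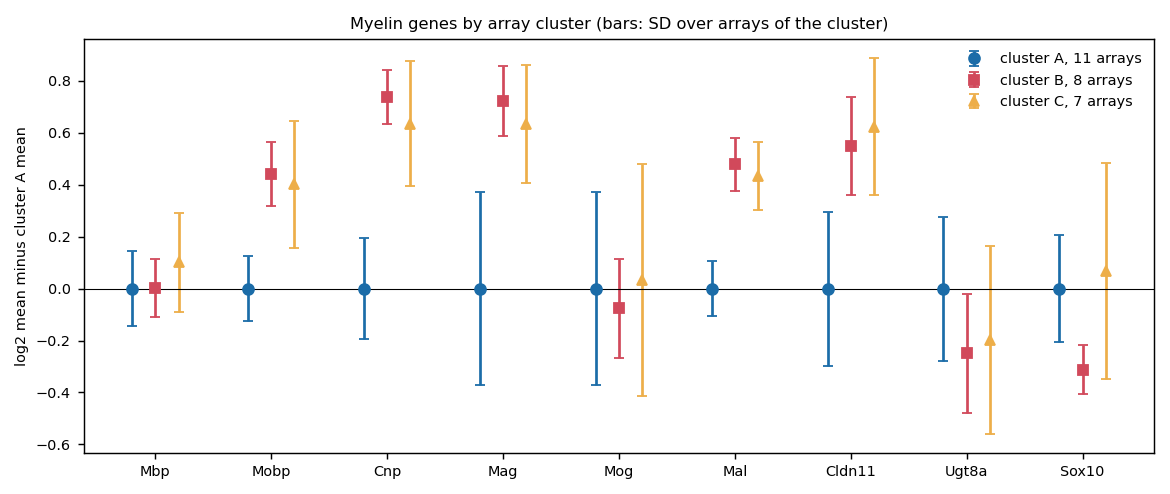
Mean log2 value of each myelin gene in array clusters A (11 arrays), B (8) and C (7), as the difference from the mean of cluster A (y axis), with bars for the SD over the arrays of the cluster. Cnp, Mag, Cldn11, Mal and Mobp lie between 0.40 and 0.74 above A in both B and C, whereas the Mbp and Mog probe sets plotted stay near 0 and Ugt8a lies below A in both.

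Shared variation was measured as the correlation of each of the 36 pairs of genes over the arrays, after each treatment group's mean was taken off. Because the arrays fall into clusters, values over all 30 arrays mix differences between clusters with differences between mice of a cluster, so both are given. Over all 30 arrays the median Pearson r was 0.07, with 21 pairs above 0 and 15 below, and 8 pairs passed a permutation test with Benjamini-Hochberg adjustment over the 36 (8 also by Spearman's rho). Within cluster A 18 pairs were above 0 and 18 below, within B 24 and 12, and within C 19 and 17. None of the 36 passed within a cluster, where the smallest adjusted permutation p of r was 0.358 in A, 0.233 in B and 0.0644 in C.

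The positive pairs over all arrays joined the genes that are low in cluster A. Mal and Mobp had r = 0.78 and rho = 0.73 (permutation p of r 2e-05, adjusted 0.00036) and r = 0.77 without the 2 arrays farthest from the median of Mal. Within clusters the same pair had r = -0.39 in A, 0.81 in B and 0.72 in C, so it did not hold in the largest cluster. Mal and Cldn11, both membrane proteins of the sheath, had r = 0.77 and rho = 0.73 over all arrays and r of -0.67, 0.46 and 0.27 within A, B and C. Cnp with Mal gave 0.70, with Cldn11 0.67 and with Mobp 0.63, and Mobp with Cldn11 gave 0.62, with rho from 0.52 to 0.65. Mag and Cnp gave r = 0.46 and rho = 0.58. With cluster means also removed, over 26 arrays, Mal with Mobp was 0.32, Mal with Cldn11 -0.18, Cnp with Mal -0.32 and Cnp with Mobp 0.14. Each of these 4 values is below that over all arrays. Other pairs rose in the same step, such as Mag with Sox10 from 0.29 to 0.58 and Mal with Sox10 from -0.03 to 0.42.

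On its probe set of highest mean, 1433532_a_at, Mbp had an r of 0.03 to the mean of the other 8 genes. The same measure was 0.74 for Mal, 0.72 for Mobp, 0.63 for Cnp and 0.62 for Cldn11. Mog stood at 0.38, Mag at 0.13, Sox10 at -0.11 and Ugt8a at -0.38. The other Mbp probe sets, some of which stepped with the clusters, were not used for this measure. Ugt8a and Sox10 formed the one negative pair that passed by r (-0.72), but rho was -0.36 and did not pass (adjusted permutation p 0.189). Without haloperidol 2 and control 1, the arrays farthest from the median of Ugt8a, the r of Ugt8a and Sox10 was -0.45. Part of its size over all arrays therefore rests on those arrays. Within A, B and C the r of this pair was -0.58, -0.37 and -0.83, and none of these passed. With cluster means also removed, over 26 arrays, it was -0.63. Mag and Ugt8a passed by rho instead (-0.53), with r = -0.59, and r was -0.65 without haloperidol 7 and clozapine 3.

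Several members also went with the 3′ minus 5′ measure of RNA quality over the 30 arrays. The r was 0.69 for Cldn11, 0.63 for Mal, 0.61 for Mog, 0.49 for Mobp and -0.41 for Mag, 5 of 9 past the adjusted permutation threshold. By Spearman's rho 3 of 9 passed, Cldn11 (0.56), Mal (0.50) and Mog (0.43). Control 1 and haloperidol 7 lie far out on this measure, and without them the values were 0.51, 0.43, 0.44, 0.24 and 0.22. Cldn11, Mal and Mog kept a positive value without those arrays, and Mag changed sign. Within cluster A the r of Cldn11 was 0.13, in B 0.92 and in C 0.11.

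**Figure D4:**
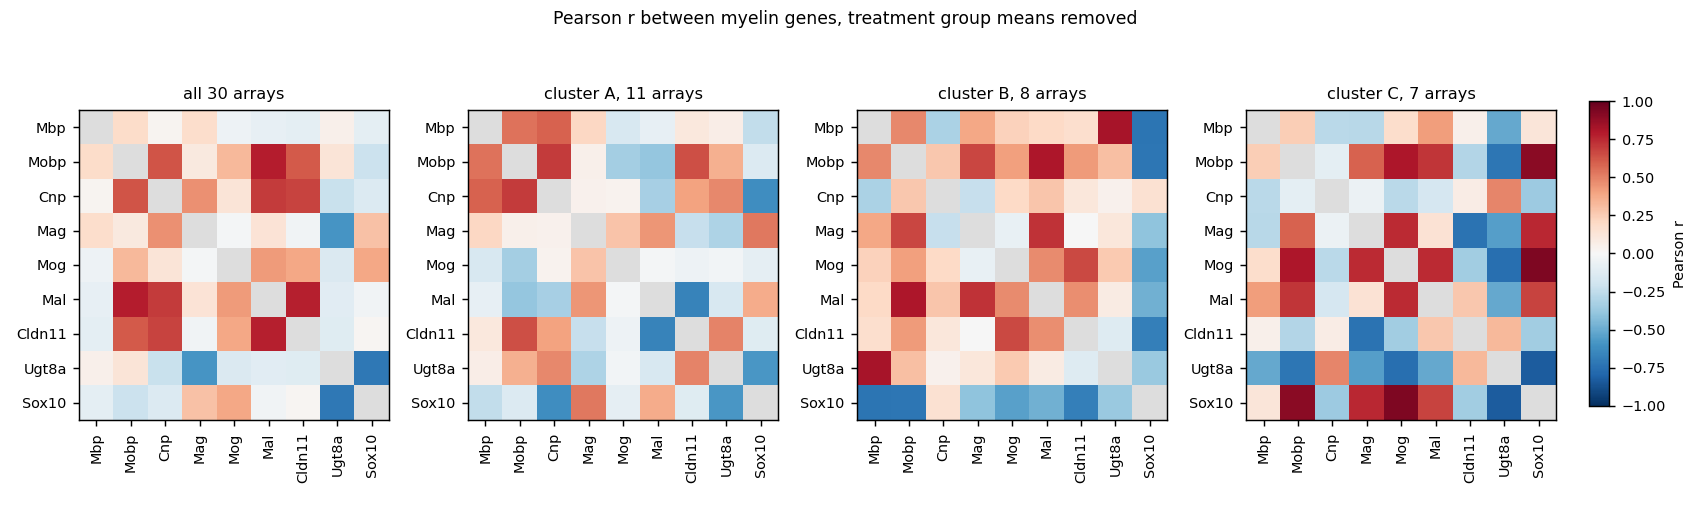
Pearson r (colour, from -1 to 1) of each pair of the 9 myelin genes after treatment group means were removed, over all 30 arrays and within array clusters A, B and C, with genes on both axes and the diagonal in grey. The red block of Mobp, Cnp, Mal and Cldn11 over all arrays (r from 0.62 to 0.78) changes from cluster to cluster: Mal and Mobp have r = -0.39 in A, 0.81 in B and 0.72 in C, Cnp and Mobp 0.70 in A, and Mal and Cldn11 -0.67 in A.

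Probe sets of the same gene did not always give the same picture. For Mobp, probe set 1433785_at and the dimmer 1450088_a_at had r = 0.01 over the 30 arrays, while 1450088_a_at and 1421010_at had r = 0.83. Control 1 shows the contrast: 12.21 on 1433785_at, the highest of all arrays, and 6.72 on 1450088_a_at, the lowest control. On 1450088_a_at cluster C stood with A (8.55 ± 0.31, SD, n = 7, and 8.48 ± 0.67, SD, n = 11) and below B (9.97 ± 0.24, SD, n = 8), whereas on 1433785_at C stood with B. The pair of Mal probe sets differed in the same way, with 1432558_a_at at 8.63 in A, 9.53 in B and 8.52 in C and r = 0.14 to 1417275_at. For Ugt8a, 1419063_at was lower in B than in A and 1419064_a_at was higher there (7.01 against 5.28), with r = 0.13 between them.

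Mbp, a gene with many splice forms, showed the widest disagreement among its 8 probe sets. The bright sets 1436201_x_at and 1454651_x_at had r = 0.81. Probe set 1425263_a_at instead ran from 2.46 to 9.31, with means of 8.26 ± 0.72 (SD, n = 11) in A, 6.07 ± 0.80 (SD, n = 8) in B and 3.60 ± 0.73 (SD, n = 7) in C. Its within-group SD of 2.16 lay at percentile 99.7 of all probe sets tested. Its clozapine minus control difference of -1.21 (SE 0.91) had an interval that crosses 0, and 5 of the 10 clozapine arrays belong to cluster C. Probe set 1451961_a_at was between 9.67 and 11.97 on the other arrays, and at 1.74 on control 1 and 6.75 on haloperidol 7, the 2 arrays with the widest 3′ minus 5′ difference. Cnp 1449296_a_at was likewise lowest on these arrays, at 3.89 and 5.31. On the bright Mbp set 1433532_a_at the same arrays stood at 14.20 and 13.90, near the rest.

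**Figure D5:**
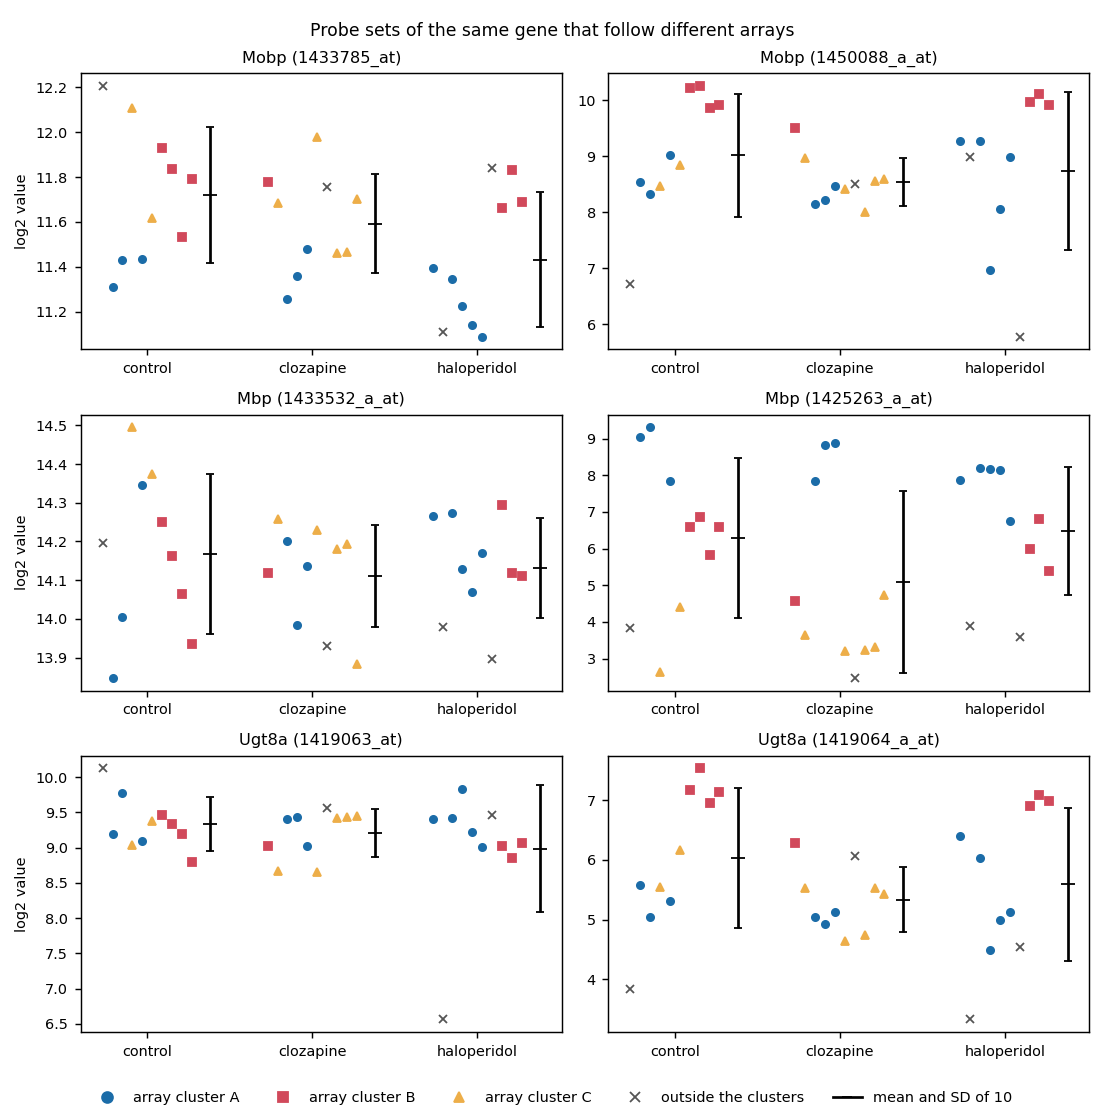
Log2 values (y axis, a separate scale in each panel) of a pair of probe sets each of Mobp, Mbp and Ugt8a on the 30 arrays, by treatment group (x axis), with colour and shape for the array cluster and a bar for the mean and SD of 10 mice. The probe set on the left and that on the right of a row order the arrays differently: Mbp 1425263_a_at falls into steps of 8.26, 6.07 and 3.60 by cluster, which 1433532_a_at does not show.

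The genes whose profile over the 30 arrays was most like the mean of the 9 standardised member profiles were Efhd1 (r = 0.89), Hsd11b1 (0.88), Rgs11 (0.86), Hk1 (0.85), Anxa6 (0.85), Dkk3 (0.84), Carhsp1 (0.84), Tmem50b (0.84), Nsg2 (0.84) and Hadhb (0.83). Efhd1 encodes a calcium-binding protein of mitochondria, Hsd11b1 an enzyme that regenerates active glucocorticoid, and Hk1 the first enzyme of glycolysis. These values are descriptions over arrays that share the cluster steps, and over all 12944 probe sets 16.8% had an r above 0.5. Within clusters A, B and C, Hsd11b1 kept 0.77, 0.78 and 0.71 and Efhd1 0.53, 0.90 and 0.89, whereas Dkk3 had 0.09 in A. Among the 39 other oligodendrocyte genes the median r was 0.37, with 26 above 0 and 15 above 0.5, against a median of 0.13 over all probe sets. Of these genes, named after their values were seen, Hapln2 (0.77), Fa2h (0.73) and Septin4 (0.71) were most like the members, and Kif1c (-0.74) was least like them.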

How the data were processed

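The authors deposited log2 values, and the submitters' processing notes name GCRMA as the tool. This method corrects background from probe sequence, normalizes arrays and summarises probes. No source used here gives its version or a genome build. The number of arrays limits the precision.

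Of 22690 probe sets, 64 controls were left out and 12944 with a mean of at least 4 were tested. By the platform annotation 20380 had 1 gene symbol, 691 several and 1555 none. Differences were fitted with limma 3.58.1 in R 4.3.3, all 30 arrays in a single fit with a mean for each group, two-sided, with Benjamini-Hochberg adjustment and calls at an adjusted p under 0.05. The script was tested on simulated data. For levels and correlations each gene is represented by its probe set with the highest mean.

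Array clusters came from average linkage on 1 minus Pearson r. Correlations used two-sided permutation tests, 100000 permutations over 30 arrays within treatment groups and within cluster A, and exact permutation in clusters B and C.

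Named genes are all members, from 3 lists the 2 genes with the smallest p in each direction of each comparison, and the 10 probe sets most like the mean member profile. The members, lists and array clusters were chosen with earlier results of these data known. Alternatives were another normalization, other filters, blocks for replicate number, number range and array cluster, an RNA quality covariate, array weights, outlying arrays left out, and the mean of a gene's probe sets. Replicate numbers come from the titles. Same-numbered arrays had correlations of their residuals from -0.50 to 0.80, so the numbers were not taken as pairs.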

Additional observations from a re-analysis of the deposited data

Results flagged for a closer look

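Each member probe set was checked in each treatment group for an array far from the other 9, with Dixon's criterion at the critical ratio of 0.466, and 12 of 72 checks found one. Chance alone gives about 1 in 20. Of the 12, 9 were on control 1, haloperidol 2 or haloperidol 7.

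Control 1 was highest of the controls for Cldn11 1416003_at (9.42, next 8.61) and for Mog 1448768_at (8.66, next 7.96). It was lowest for Mobp 1421010_at (10.13, next 11.26), Cnp 1449296_a_at (3.89, next 8.61) and Mbp 1451961_a_at (1.74, next 10.62). Haloperidol 7 was lowest of its group for the same Cnp probe set (5.31, next 8.10) and the same Mbp probe set (6.75, next 9.67). These 2 arrays have the widest 3′ minus 5′ differences, 4.09 and 2.45, and the part of RNA quality in these values was not tested.

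Haloperidol 2 was lowest for Ugt8a 1419063_at (6.56, next 8.85) and highest for Sox10 1451689_a_at (9.58, next 8.56). In the clozapine group, clozapine 1, the single clozapine array of cluster B, was highest for Mobp 1421010_at (11.94, next 11.32). Clozapine 6 was highest for Mbp 1454651_x_at (12.08, next 11.71). Clozapine 9 was highest for Sox10 1425369_a_at (2.40, next 2.18), a probe set below the level filter.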

How the results depend on the processing

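Besides the settings given in the report, 14 alternatives were run. The count of member probe sets called stayed at 0 in each comparison under all of them except array weights, which called 5 member probe sets and 1731 of all probe sets for clozapine against control, with Sox10 1451689_a_at at 0.35. For haloperidol against control, 1 probe set of all was called with the array cluster as a block and 5 with array weights added to that block, none of them a member. With replicate number as a block, 0 probe sets were called in each comparison, and 846, 540 and 642 had an unadjusted p under 0.05, against 563, 298 and 406 without it, so the block changed no call. Without control 1, haloperidol 2 or haloperidol 7 in turn, the median member difference ran from -0.09 to -0.05 for clozapine, from -0.16 to -0.08 for haloperidol and from 0.07 to 0.12 for clozapine against haloperidol. The array cluster block changed the sign of the last 2, to 0.02 and -0.03, and left clozapine at -0.08. With control 1, haloperidol 2 and haloperidol 7 left out together, 5, 0 and 1 of 23 member probe sets had an unadjusted p under 0.05. These counts are for clozapine, haloperidol and clozapine against haloperidol. Over all 12944 probe sets tested, 1470, 375 and 2300 had such a p, and none was called. Of 378 differences of the 9 genes under alternatives, 46 changed sign, and in 1 of them the value exceeded its SE: with the mean of all probe sets of a gene, Mobp for clozapine against haloperidol was -0.030 in place of 0.16. That setting also moved the median r of the 36 pairs from 0.07 to 0.25. The cause of these shifts was not tested. Signal near background limits Sox10 1425369_a_at.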
